A study of Homo sapiens with 4 samples.

Results

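The effect of PF-429242 on transcript levels was compared gene by gene between HepG2 and PLC/PRF/5, a pair of human liver tumour lines. For each gene the response of a line was the log2 ratio of (FPKM + 1) in the treated library to that in the control library. The line difference was the response of HepG2 minus that of PLC/PRF/5, so that a negative value means that the treated-to-control ratio was higher in PLC/PRF/5. FPKM counts fragments per kilobase of a gene's exons and is scaled to the total fragments of the library. Members had to be nuclear protein-coding genes that reached 5 FPKM in 1 or both libraries of each line, which left 5343 of 16696 such genes, in a table of 32479 genes. Of the others, 682 passed this level in HepG2 alone, 1023 in PLC/PRF/5 alone and 9648 in neither line. At the edge of the rule, the lower of the lines' maxima was 4.9996 FPKM for MFSD1 and 4.99957 for PRKRIP1, which stayed outside, and 5.00338 for ZNF672 and 5.00425 for H6PD, which were inside.

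HepG2 is a line of hepatoblastoma origin, and PLC/PRF/5 is a hepatoma line with hepatitis B virus DNA in its genome. Both are labelled wild type, and both were grown in MEM with fetal bovine serum. The 4 groups were untreated HepG2 at 24 h, HepG2 after 24 h with 20 uM PF-429242, untreated PLC/PRF/5 at 24 h, and PLC/PRF/5 after 24 h with 20 uM PF-429242. The labels name no vehicle for the controls. Each group held 1 library, so a line difference compares 4 libraries, has no replicate check and carries no p-value.

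PF-429242 inhibits site-1 protease, a Golgi enzyme that cuts the membrane-bound precursors of the sterol regulatory element-binding proteins (SREBPs) when cells lack sterols. The freed SREBP fragments enter the nucleus and switch on the genes of cholesterol synthesis, lipoprotein uptake and fatty acid synthesis. The same protease cuts ATF6, which drives genes of the endoplasmic reticulum (ER) chaperones. Hepatocytes depend on these pathways for lipoprotein and plasma protein secretion.

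The libraries held between 16722204 and 21387301 counted fragments. The mitochondrial genome took 16.6% of them in the HepG2 control and 27.6% in treated HepG2, against 21.3% and 28.2% in PLC/PRF/5. The median response over the members was -0.19 in HepG2 and -0.14 in PLC/PRF/5, and the part of the mitochondrial shares in it was not tested. All 16 hepatocyte markers reached 1 FPKM in every library, with summed levels of 12310 and 10710 FPKM in control and treated HepG2 and 4496 and 4722 FPKM in PLC/PRF/5. Of the 7 fibroblast markers in the table, 0 reached 1 FPKM in any library. Of the 5 endothelial markers at most 1 did, and of the 6 blood markers LYZ alone did. Cells fewer in number and cells with less RNA cannot be told apart in bulk RNA of this kind.

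The PLC/PRF/5 libraries stood apart from those of HepG2 in one respect that bears on the results. Genes well expressed in one line and near 0 in the other were found in 1 direction almost alone. Of 1674 nuclear protein-coding genes at 20 FPKM or more in the PLC/PRF/5 control, 15 were listed at 0 in the HepG2 control and 35 stood under 1% of the PLC/PRF/5 level. Of 1644 genes at 20 FPKM or more in the HepG2 control, 0 were listed at 0 in the PLC/PRF/5 control and 1 was under 1%, COL2A1 at 0.54%. The first percentile of the PLC/PRF/5 share was 10.0% in the controls and 20.7% in the treated libraries, where it was taken over 1388 genes. The first percentile of the HepG2 share was 0.027% in the controls. After COL2A1, the lowest shares in the PLC/PRF/5 control were 1.49% for MT1G and 3.66% for AKR1B10. Few genes with a high HepG2 level thus stood near 0 in PLC/PRF/5, with 17 under 10% in the controls and 3 in the treated libraries. This floor was not the same for all genes. Among those at 20 FPKM or more in treated HepG2, the lowest treated share was 5.06%, for AKR1B10. Whether the PLC/PRF/5 libraries hold RNA of HepG2 cells was not tested, nor was the part of this floor in the line differences. Counts are therefore also given for the 3697 members (69.2%) whose control levels were within 1.5-fold between the lines. They are also given after subtracting 10.0% of the HepG2 control level and 20.7% of the treated HepG2 level from the PLC/PRF/5 libraries. This is more than the whole PLC/PRF/5 level of the lowest genes, whose values were then set to 0.

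**Figure D1:**
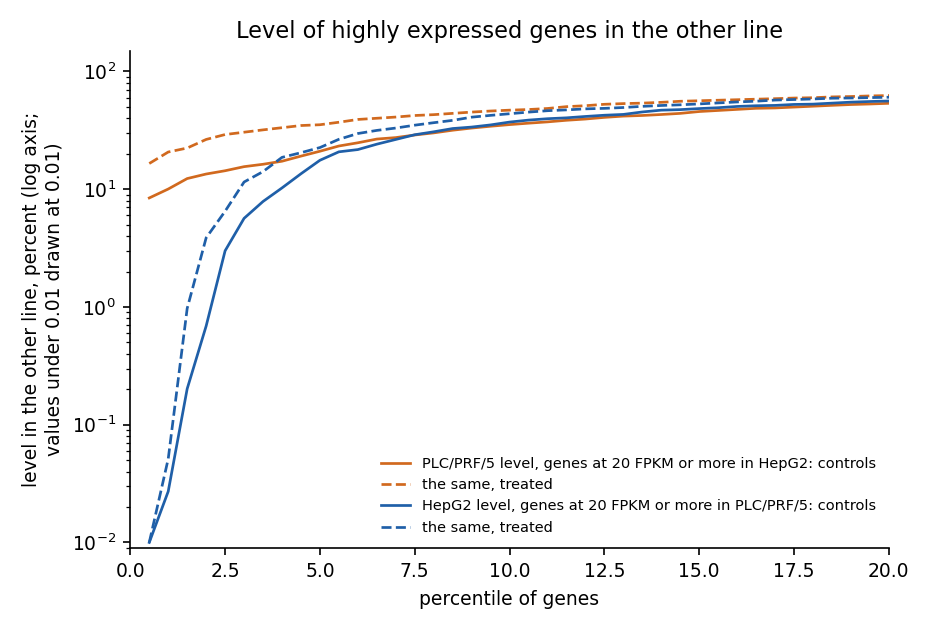
Level of a gene in the other line as a percent of the line where it was at 20 FPKM or more (log axis), for the genes lowest in that percent, in controls (solid) and treated libraries (dashed). At percentile 1 the PLC/PRF/5 shares (orange) stand at 10.0% in the controls and 20.7% in the treated libraries, and the HepG2 share (blue) at 0.027% in the controls, with smaller values drawn at the lower edge of the axis.

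The responses of the lines were related but not alike. Across the 5343 members, which are not independent replicates, Pearson's r of the 2 responses was 0.53 and Spearman's rho 0.45. The responses had opposite signs in 1156 members (21.6%), most of them near 0. The line difference had a median of -0.06, a 5th percentile of -0.47 and a 95th percentile of 0.23. A treated level at least 1.5-fold above the control was found in 16 members (0.299%) in HepG2, and one at least 1.5-fold below it in 151 (2.83%). The same counts in PLC/PRF/5 were 107 (2%) above and 104 (1.95%) below. In both lines, 8 members were higher and 54 lower at this fold. A line difference of 1.5-fold or more was found in 194 members, of which 178 (3.33%) had the higher response in PLC/PRF/5 and 16 (0.299%) in HepG2. The 95% counting interval of the ratio of ratios excluded 1 for all 178 and all 16, but this interval covers counting error only. It rests on the same values that chose these members, so it gives them no separate support.

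**Figure D2:**
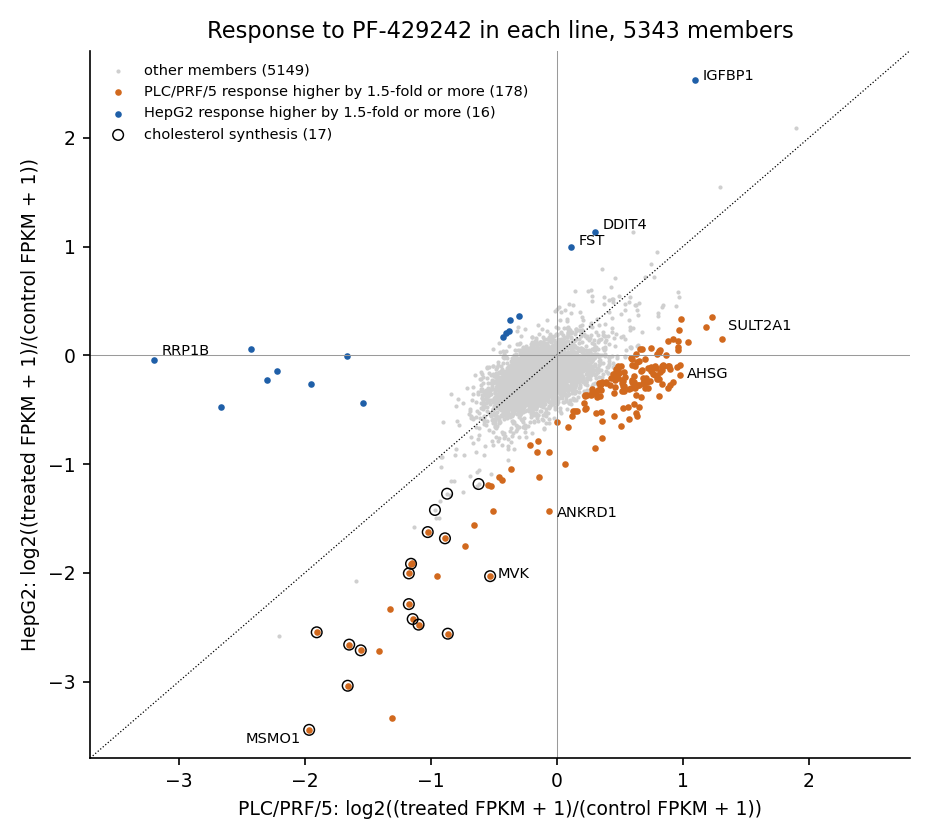
Response of each of the 5343 members in PLC/PRF/5 (x axis) and HepG2 (y axis), as log2 of treated over control (FPKM + 1), with the line of equal responses dotted. The 178 members in orange lie below the dotted line by 1.5-fold or more, the 16 in blue above it, and the 17 circled cholesterol synthesis genes all lie below it.

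The genes of cholesterol synthesis were lower in both treated lines, and the treated-to-control ratio was lower in HepG2 for all of them. Of the 20 genes on this list 17 were members. Their median response was -2.29 in HepG2 and -1.14 in PLC/PRF/5, against -0.19 and -0.14 over all members. All 17 had a negative line difference, with a median of -1.01 against -0.06 over all members. It reached 1.5-fold in 14 of the 17, against 3.33% of all members. MVK, mevalonate kinase (chromosome 12, 109573255 to 109598117, GRCh38), stood at 5.03 FPKM in the HepG2 control and 0.477 in treated HepG2. It stood at 5.56 FPKM in the PLC/PRF/5 control and 3.55 after treatment. The controls were close to each other and treated HepG2 was the lowest of the 4 libraries. The treated-to-control ratio was 0.0948 (95% counting interval 0.073 to 0.123, from 546 and 63 fragments) in HepG2 and 0.638 (0.565 to 0.72) in PLC/PRF/5. The ratio was thus 6.73 times as high in PLC/PRF/5 (5.05 to 8.97). MVK passed the filter of 5 FPKM in HepG2 narrowly and only through its control, which is also the denominator of the HepG2 ratio. MVD, which makes isopentenyl diphosphate in the same branch (chromosome 16, 88651935 to 88663161), stood at 15.7 and 1.83 FPKM in HepG2 and at 5.87 and 2.77 FPKM in PLC/PRF/5. Its line difference was -1.69. IDI1, the isomerase that follows MVD, stood at 30.5 and 2.84 FPKM in HepG2 and at 29.1 and 8.54 FPKM in PLC/PRF/5, with a line difference of -1.38. FDPS, which builds farnesyl diphosphate, had a line difference of -0.76, with responses of -1.92 and -1.16.

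The enzymes at the head of the pathway and those that turn squalene into cholesterol had the same sign. HMGCS1 (HMG-CoA synthase) had responses of -2.66 in HepG2 and -1.65 in PLC/PRF/5. MSMO1, a C4 sterol methyl oxidase (chromosome 4, 165327623 to 165343160), stood at 70.4 and 5.57 FPKM in HepG2 and at 29.8 and 6.9 FPKM in PLC/PRF/5. LSS (lanosterol synthase) had a line difference of -1.38, FDFT1 (squalene synthase) one of -1.28 and SQLE (squalene epoxidase) one of -1.16. The smallest line differences of the list belonged to late steps, with -0.45 for TM7SF2 and -0.40 for EBP.

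The list also differed in its levels. The control level was higher in HepG2 for 14 of the 17 members, and the treated level was lower in HepG2 for 12, with 9 members in both groups. The difference was not limited to genes with a higher HepG2 control. MVK, NSDHL and TM7SF2 had a lower control level in HepG2 and line differences of -1.50, -0.60 and -0.45. The median was -0.76 for the 9 members with control levels within 1.5-fold, most of which were still somewhat higher in HepG2. Of the 9, 7 reached 1.5-fold, against 22 (0.595%) of all 3697 members with such controls. Of those 22, 10 were on the lists of cholesterol synthesis, cholesterol uptake or fatty acid synthesis, which hold 23 of the 3697 members. With the HepG2 share subtracted, the median over 16 measured members was -1.07 and 13 reached 1.5-fold. The subtraction favours a more negative line difference where HepG2 was higher in the controls and lower when treated. Both held for 9 members, and the shares came from these same libraries. These values are thus no separate check of the difference.

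**Figure D3:**
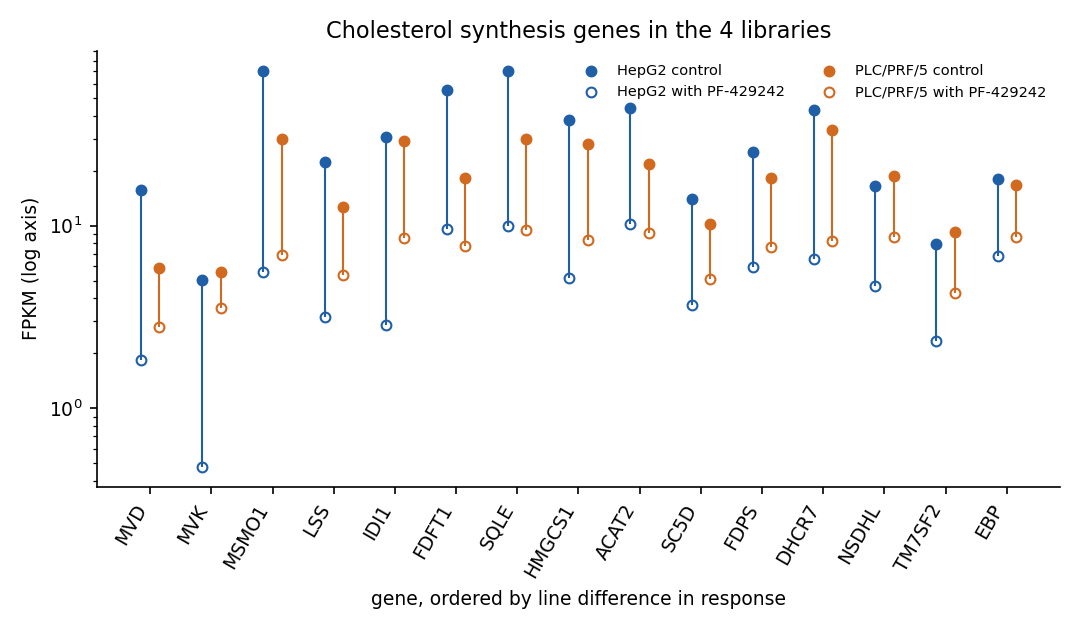
FPKM (log axis) of 15 of the 17 cholesterol synthesis members in the 4 libraries, with filled points for controls, open points for PF-429242 and a line joining the libraries of a line, ordered by line difference. The drop is longer in HepG2 (blue) than in PLC/PRF/5 (orange) for all 15, and MVK, IDI1 and NSDHL are among those that start from controls within 1.5-fold.

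SREBPs bind a sterol regulatory element (SRE), often near a site for the factor NF-Y, whose core letters are CCAAT. Sequences before the start of MSMO1 and MVD, which had large line differences, and of the SREBP-2 gene SREBF2 are shown so that these letters can be seen. They are RefSeq sequences of GRCh38.p14, 5′ to 3′ on the gene's strand, cut where GENCODE places the first exon of a protein-coding gene. The capitals mark CCAAT on either strand and, in SREBF2, also a match to the SRE letters TCACNCCAC.
MSMO1, chr4:165327419-165327622, plus strand: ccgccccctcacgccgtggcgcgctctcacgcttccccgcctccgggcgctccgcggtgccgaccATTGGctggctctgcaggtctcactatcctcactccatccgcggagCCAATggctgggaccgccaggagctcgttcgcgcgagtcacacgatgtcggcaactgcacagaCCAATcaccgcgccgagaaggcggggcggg
MVD, chr16:88663162-88663341, minus strand: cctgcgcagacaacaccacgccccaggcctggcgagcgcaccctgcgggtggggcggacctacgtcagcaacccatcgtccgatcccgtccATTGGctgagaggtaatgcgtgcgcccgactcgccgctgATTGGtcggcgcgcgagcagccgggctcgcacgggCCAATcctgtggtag
SREBF2, chr22:41832855-41833078, plus strand: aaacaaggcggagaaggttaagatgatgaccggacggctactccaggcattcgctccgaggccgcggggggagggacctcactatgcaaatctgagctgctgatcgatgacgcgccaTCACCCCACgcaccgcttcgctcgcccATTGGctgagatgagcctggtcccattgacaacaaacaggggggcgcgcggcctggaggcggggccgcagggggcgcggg

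The sequences shown hold 3 CCAAT matches for MSMO1, 3 for MVD and 1 for SREBF2. Over the whole 250 bases before the RefSeq start the counts were 4, 3 and 1, and the window of MVK held 5. A CCAAT match was found in 11 of the 12 cholesterol synthesis members with a RefSeq window (91.7%). The share was 37.5% of the 4470 members with such a window and 33.0% of all 27305 windows. The GC box GGGCGG was likewise found in 11 of the 12, against 71.0% of members and 42.3% of all windows. The strict SRE letters were found in 0 of the 12, against 0.984% of members and 0.875% of all windows. Of the other motifs searched, the E-box CACGTG and the TEAD element GGAATG were found in 1 of the 12 each. The ATF4 element TGATGNAA, the AP-1 element TGANTCA, the forkhead element GTAAACA and the HNF4 element CAAAGTCCA were found in 0. A match or its absence describes these letters in this window only.

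Cholesterol uptake and sterol sensing followed the same sign with a smaller median. The 11 members of this list had a median line difference of -0.44, with 4 at 1.5-fold or more, and -0.20 over the 7 with control levels within 1.5-fold. SREBF2 (chromosome 22, 41833079 to 41907308), itself an SREBP target, stood at 20.7 FPKM in the HepG2 control and 3.32 after treatment, and at 17.4 and 6.34 FPKM in PLC/PRF/5. Its treated-to-control ratio was 2.28 times as high in PLC/PRF/5 (2.02 to 2.58). SREBF1, which encodes SREBP-1, had responses of -1.34 and -0.93. STARD4, a sterol carrier, had responses of -1.91 and -1.14. INSIG2, which holds SREBPs in the ER, was the one list member higher by 1.5-fold in a treated line, at 6.45 and 10.6 FPKM in PLC/PRF/5 and 24.2 and 26 FPKM in HepG2. Of the list, NPC1, a lysosomal cholesterol exporter, alone had a positive line difference, at 0.18.

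Fatty acid genes differed less between the lines. For the 13 members that make fatty acids and triglycerides the median response was -1.06 in HepG2 and -0.74 in PLC/PRF/5. Their median line difference was -0.44, and 2 reached 1.5-fold, ACSS2 and MID1IP1. ACSS2, which makes acetyl-CoA from acetate, stood at 13.5 and 3.31 FPKM in HepG2 and at 6.49 and 3.51 FPKM in PLC/PRF/5, with a line difference of -1.03. MID1IP1, an activator of acetyl-CoA carboxylase, had one of -0.68 with control levels within 1.5-fold. The stearoyl-CoA desaturase SCD stood at 419 and 69.4 FPKM in HepG2 and at 296 and 63.6 FPKM in PLC/PRF/5, so that both lines were several-fold lower and the line difference was -0.38. For ELOVL5, an elongase of polyunsaturated fatty acids, the responses were -0.94 and -0.92. With the HepG2 share subtracted, 5 of 12 measured members reached 1.5-fold, which has the same limit as for cholesterol synthesis. The protease itself and the proteins it cuts gave 10 members with a median line difference of -0.08, of which SREBF2 alone reached 1.5-fold. Their median response in HepG2 was -0.17 as deposited and between 0.01 and 0.02 under the 4 scalings other than TPM.

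The integrated stress response was similar in both lines as a list and differed in single genes. Its 25 members, targets of the transcription factor ATF4, had median responses of 0.40 in HepG2 and 0.41 in PLC/PRF/5 and a median line difference of 0.02. The size of these responses depended on the scaling. They were 0.10 and 0.07 on the TPM scale, with 24 members. Under the 4 other scalings they were between 0.56 and 0.59 in HepG2 and between 0.52 and 0.56 in PLC/PRF/5. The responses of the serine synthesis gene PSAT1 were 0.52 and 0.44, and those of the secreted hormone STC2 were 0.72 and 0.70. DDIT4, an inhibitor of mTORC1 (chromosome 10, 72273920 to 72276036), stood at 5.36 and 13 FPKM in HepG2 and at 15.2 and 19 FPKM in PLC/PRF/5. Its treated-to-control ratio was 1.95 times as high in HepG2 (1.6 to 2.37). TRIB3, a pseudokinase, went the other way, at 23.5 and 23.5 FPKM in HepG2 and 8.09 and 15.6 FPKM in PLC/PRF/5. The treated PLC/PRF/5 library remained under both HepG2 libraries for TRIB3. SLC7A11, the cystine transporter, had responses of 1.14 and 0.60, and its line difference of 0.54 was under 1.5-fold.

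Among insulin and FOXO targets, 1 gene had a much higher response in HepG2. IGFBP1, a liver-secreted protein that binds insulin-like growth factors (chromosome 7, 45888357 to 45893668), stood at 17.8 FPKM in the HepG2 control and 108 after treatment. It stood at 230 FPKM in the PLC/PRF/5 control and 494 after treatment. Treated HepG2 did not reach the PLC/PRF/5 control. The ratio was 6.05 (5.5 to 6.65) in HepG2 and 2.14 (2.08 to 2.2) in PLC/PRF/5. DEPP1, a FOXO-induced gene, was higher to a like extent in both lines, with responses of 2.09 and 1.90 and a ratio of ratios of 1.09 (0.852 to 1.39). The 9 members of the list had a median line difference of 0.01, and IGFBP1 alone reached 1.5-fold. The median responses were 0.18 and 0.19, and -0.13 and -0.11 on the TPM scale, which sets the FPKM of every library to the same sum.

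ER chaperones were lower after treatment in both lines, and more so in HepG2 for a few genes. The 15 members had median responses of -0.49 and -0.29 and a median line difference of -0.20, with 13 below 0 and 2 at 1.5-fold, MANF and CALR. CALR, the calcium-binding chaperone calreticulin, stood at 460 and 200 FPKM in HepG2 and at 395 and 275 FPKM in PLC/PRF/5, with a line difference of -0.68. MANF, a secreted ER stress protein, stood at 29.4 and 15.4 FPKM in HepG2 and at 17.7 and 17.0 FPKM in PLC/PRF/5. HSPA5, the main ER Hsp70 known as BiP, stood at 365 and 222 FPKM in HepG2 and at 262 and 229 FPKM in PLC/PRF/5. For HSPA5 the controls differed more than the treated libraries did. CANX, the membrane chaperone calnexin, had the opposite sign, with responses of -0.04 and -0.34. The 10 members with controls within 1.5-fold had a median line difference of -0.19 and all 10 were below 0.

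Targets of p53, the stress-activated tumour suppressor, had opposite median signs in the lines. HepG2 is known to keep wild-type p53, and PLC/PRF/5 is known to carry a p53 mutation. The 13 members had a median response of -0.32 in HepG2 and 0.23 in PLC/PRF/5. All 13 had a negative line difference, with a median of -0.39. CDKN1A, DDB2, FDXR, BAX and TP53INP1 reached 1.5-fold, 5 of the 13 against 3.33% of all members. On the TPM scale the PLC/PRF/5 median was -0.07. The median line difference was -0.41 there and -0.30 under median-of-ratios scaling, where 11 of 13 were below 0. CDKN1A, the cyclin-dependent kinase inhibitor p21 (chromosome 6, 36676460 to 36687339), stood at 24.3 and 15.7 FPKM in HepG2 and at 6.73 and 8.92 FPKM in PLC/PRF/5. BAX, which permeabilises mitochondria in apoptosis, stood at 35.6 and 28.3 FPKM in HepG2 and at 18.7 and 24.1 FPKM in PLC/PRF/5. For both genes the HepG2 libraries were above the PLC/PRF/5 libraries and the lines were closer after treatment. Over the list the control ratio of HepG2 to PLC/PRF/5 had a median log2 of 0.81. The 2 members with controls within 1.5-fold, TP53I3 and RRM2B, had line differences of -0.23 and -0.08, and with the HepG2 share subtracted the list's median was -0.35. GDF15, a stress hormone also induced by ATF4, had responses of 0.72 and 0.77.

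Plasma protein genes of the hepatocyte, listed apart from those of coagulation and fibrinogen, had a higher median response in PLC/PRF/5, where most started from lower levels. The 14 members had a median response of -0.26 in HepG2 and 0.40 in PLC/PRF/5. A PLC/PRF/5 response higher by 1.5-fold or more was found in 8, against 3.33% of all members. It was also found in 62 of the 291 members 2- to 4-fold higher in the HepG2 control. Of the 81 at least 4-fold higher there, 76 had it, so the count of 8 is not particular to this list. The PLC/PRF/5 median was 0.07 on the TPM scale and -0.09 with the HepG2 share subtracted. That subtraction moved the median line difference from -0.65 to -0.32 over 12 measured members, with 4 at 1.5-fold or more and 1 past it in the other direction. ALB (albumin; chromosome 4, 73397114 to 73421412) stood at 2586 and 2421 FPKM in HepG2 and at 624 and 1148 FPKM in PLC/PRF/5. AHSG (fetuin-A) stood at 840 and 792 FPKM in HepG2 and at 112 and 222 FPKM in PLC/PRF/5. AFP, the fetal counterpart of albumin, stood at 2976 and 2483 FPKM in HepG2 and at 288 and 441 FPKM in PLC/PRF/5. In each of these the HepG2 libraries were close to each other and far above both PLC/PRF/5 libraries.

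The members of that list whose controls were not at least 1.5-fold higher in HepG2 had line differences near 0. AMBP, the precursor of alpha-1-microglobulin, stood at 442 and 375 FPKM in HepG2 and at 524 and 426 FPKM in PLC/PRF/5, with a line difference of 0.06. AGT (angiotensinogen) had one of -0.003 and VTN (vitronectin), which was 8.66 times as high in the PLC/PRF/5 control, one of 0.02. The median over the 2 members with controls within 1.5-fold was 0.03. Over the whole list the median log2 ratio of the controls was 2.01. The separate list of coagulation and fibrinogen genes was mixed, with a median line difference of -0.25 over 13 members, 6 above 0 and 7 below. In PLC/PRF/5, 2 of the 13 were higher by 1.5-fold or more and 4 lower. Among the lower was the fibrinogen gene FGB, at 145 and 94.4 FPKM in HepG2 and at 648 and 347 FPKM in PLC/PRF/5.

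Genes of bile acid and drug metabolism showed the same order of levels. The 6 members had a median response of 0.12 in HepG2 and 0.95 in PLC/PRF/5, and on the TPM scale, with 5 members, of -0.25 and 0.66. SULT2A1, a sulfotransferase of bile acids and steroids (chromosome 19, 47870466 to 47886397), stood at 49.1 and 54.8 FPKM in HepG2 and at 5.94 and 16.2 FPKM in PLC/PRF/5. This was a ratio of 1.11 (1.04 to 1.19) against 2.73 (2.35 to 3.18). CYP27A1, the sterol 27-hydroxylase, stood at 41.0 and 36.1 FPKM in HepG2 and at 6.82 and 14.4 FPKM in PLC/PRF/5. ABCB1, the drug efflux pump P-glycoprotein, stood at 10.5% of the HepG2 level in the PLC/PRF/5 control and at 21.6% in the treated library, close to the first-percentile shares of 10.0% and 20.7%. ABCC2, a bile canalicular transporter and the one member with controls within 1.5-fold, had a line difference of 0.08.

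A response in 1 line only was counted where a member differed by 1.5-fold or more in that line and by under 1.2-fold in the other. In PLC/PRF/5 only, 68 members (1.27%) were higher after treatment. The 10 largest responses were those of SULT2A1, AKR1C1, AHSG, CYP27A1, SLC2A1, SSTR5, RAB17, ORM1, BEX1 and ABCB1. These genes include enzymes, transporters and secreted proteins of the liver, the glucose transporter SLC2A1 and the somatostatin receptor SSTR5. All 68 were at least 2-fold higher in the HepG2 control. Their median level in PLC/PRF/5 was 17.4% of that in HepG2 among the controls and 35.1% among the treated libraries. Where control levels were within 1.5-fold the count was 0, with the HepG2 share subtracted it was 31, and on the TPM scale it was 9, with 4 of the 68 among them. AKR1C1 and ORM1 have near-identical paralogs among which reads may be split. ABCB1 stood at 2.26 and 5.19 FPKM in PLC/PRF/5, so it passed the filter of 5 FPKM there only through its treated library. That value is also the numerator of its response, so the filter favours a higher response. The same holds for any of the 68 with a PLC/PRF/5 control below 5 FPKM.

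In HepG2 only, 26 members (0.487%) were lower after treatment. ANKRD1, a cardiac and stress-response gene and classic target of the YAP coactivator (chromosome 10, 90912096 to 90921276), stood at 22.7 and 7.77 FPKM in HepG2 and at 21.1 and 20.2 FPKM in PLC/PRF/5. Its treated-to-control ratio was 2.8 times as high in PLC/PRF/5 (2.37 to 3.3), and the other 3 libraries were within 1.2-fold. KRT19, a keratin of bile duct and progenitor cells, stood at 26.1 and 11.5 FPKM in HepG2 and at 18.8 and 17.0 FPKM in PLC/PRF/5. THBS1 (thrombospondin-1) stood at 32.0 and 15.5 FPKM in HepG2 and at 8.02 and 8.42 FPKM in PLC/PRF/5. The rest of the 10 largest were PCYT2, which makes phosphatidylethanolamine, MANF, RHOBTB1, SLC12A4, ATP9A, HSPA5 and SFN. Of the 26, 16 had controls within 1.5-fold between the lines, and 23 of the 26 were kept with the HepG2 share subtracted. Other scalings kept 6 or 7 of the 26 among 10 to 14 such members, and the TPM scale kept 2 among 111, so most of these calls did not hold under another scaling. The list of YAP and TEAD targets had a median line difference of -0.20 over 10 members, with 2 at 1.5-fold or more, ANKRD1 and CCN1, against 3.33% of all members. Over the 6 with controls within 1.5-fold the median was -0.05, against -0.04 over all members with such controls.

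Higher in HepG2 only were 3 members (0.0561%), of which the other scalings kept between 0 and 2. FST (follistatin, an activin antagonist; chromosome 5, 53480409 to 53487134) stood at 26.3 and 53.6 FPKM in HepG2 and at 148 and 160 FPKM in PLC/PRF/5. EIF4EBP1, a translation repressor controlled by mTORC1, stood at 29.2 and 44.6 FPKM in HepG2 and at 43.9 and 52.2 FPKM in PLC/PRF/5. DUSP6, a phosphatase of ERK kinases, stood at 19.4 and 29.7 FPKM in HepG2 and at 12.4 and 13.8 FPKM in PLC/PRF/5. FST and EIF4EBP1 were higher in both PLC/PRF/5 libraries than in the HepG2 control.

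Lower in PLC/PRF/5 only were 12 members (0.225%), and 4 of them belonged to a set of RRP-named genes of ribosomal RNA processing. RRP1B (chromosome 21, 43659548 to 43696079) stood at 22 and 21.4 FPKM in HepG2 and at 25.2 and 1.86 FPKM in PLC/PRF/5. Its ratio of ratios was 13.1 (11.2 to 15.4). The line differences were 2.49 for RRP12, 2.19 for RRP36, 2.08 for RRP9 and 2.07 for RRP1, and the treated PLC/PRF/5 library was the low one for each of these genes. The set was grouped by symbol with its values known. The 3 further RRP-named genes, which were below 5 FPKM in HepG2 and so not members, were also low there. RRP15 stood at 4.65 and 3.96 FPKM in HepG2 and at 6.55 and 0.471 FPKM in PLC/PRF/5, RRP7A at 5.21 and 0.671 FPKM in PLC/PRF/5, and RRP8 at 2.09 and 0.196 FPKM in PLC/PRF/5. Beyond the set, the ribosomal RNA methyltransferase EMG1 had a line difference of 1.69, with 5.81 and 4.67 FPKM in HepG2 and 7.77 and 1.26 FPKM in PLC/PRF/5. FTSJ1, a methyltransferase of transfer RNA, had one of 1.66, with 8.2 and 8.16 FPKM in HepG2 and 16.0 and 4.37 FPKM in PLC/PRF/5. The 28 members of nucleolar ribosome biogenesis with other names had a median line difference of 0.02 and 0 at 1.5-fold. UHRF1, which maintains DNA methylation, stood at 48.8 and 35.6 FPKM in HepG2 and at 18.7 and 5.8 FPKM in PLC/PRF/5, a line difference of 1.10. UHRF1, RRP36 and EMG1 were outside the 12, since their HepG2 responses were also negative by 1.2-fold or more. Of the 12, 5 were kept under each of the 4 scalings other than TPM and 1 on the TPM scale. The other 8 of the 12 were FTSJ1, PIK3AP1, TMEM14A, NT5E, ELOVL2, METTL7B, POGLUT3 and PGM1, the last 7 with PLC/PRF/5 responses between -0.65 and -0.59. Smaller line differences of 1.5-fold or more were those of TMEM126A (0.61), the exosome subunit EXOSC5 (0.60) and the mitochondrial ribosomal protein MRPL24 (0.59).

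Opposite responses were counted where the log2 response was at least 0.32 above 0 in one line and at least 0.32 below 0 in the other. There were 19 members (0.356%) higher in PLC/PRF/5 and lower in HepG2, and 1 (0.0187%), CXCL16, with the reverse. CXCL16, a membrane-bound chemokine, stood at 10.3 and 13.2 FPKM in HepG2 and at 47.8 and 36.8 FPKM in PLC/PRF/5. Of the 19, 17 were at least 2-fold higher in the HepG2 control, such as PGC (pepsinogen C), the protein C inhibitor SERPINA5, the imprinted gene DLK1 and the HDL apolipoprotein APOA1. APOA1 stood at 557 and 402 FPKM in HepG2 and at 71.6 and 106 FPKM in PLC/PRF/5. The other 2 were HMOX1 and FSCN1. HMOX1, the heme oxygenase induced by oxidative stress (chromosome 22, 35380361 to 35394214), stood at 16.2 and 11.3 FPKM in HepG2 and at 41.9 and 60.7 FPKM in PLC/PRF/5, which was the higher line in both conditions. FSCN1, the actin bundler fascin, stood at 14.9 and 9.1 FPKM in HepG2 and at 11.8 and 17.3 FPKM in PLC/PRF/5, where the order of the lines turned. FSCN1 was the one member of the 19 with controls within 1.5-fold. All 20 had opposite signs under every scaling in which they passed the level filter, 14 of them on the TPM scale and 20 in the other scalings. They were chosen for responses of at least 0.32 in opposite directions, which favours a kept sign, so this is no check of the calls. The counts past the threshold were 10 to 40 for members higher in PLC/PRF/5 and 0 for the reverse. Of the 19, 7 or 8 were still past the threshold under the 4 scalings other than TPM, and 2 on the TPM scale.

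The response of PLC/PRF/5 followed the ratio of the control levels of the lines, and the median response of HepG2 changed little over ranges of that ratio. Among the 81 members at least 4-fold higher in the HepG2 control, the median response was -0.18 in HepG2 and 0.68 in PLC/PRF/5, and 79 were above 0 in PLC/PRF/5. For 76 of the 81 (93.8%) the line difference reached 1.5-fold. Among the 291 members 2- to 4-fold higher in the HepG2 control, the PLC/PRF/5 median was 0.22. It was -0.15 in the 3353 members whose control log2 ratio was within 0.5 of 0, -0.33 in the 226 that were 2- to 4-fold lower in HepG2 and -0.41 in the 39 that were at least 4-fold lower. The HepG2 median stayed between -0.20 and -0.18 in all 7 ranges of the control ratio. The control libraries enter both the ratio used for these ranges and the responses. Over ranges of the mean of the control and treated log2 ratios, the PLC/PRF/5 median went from -0.42 to 0.66, and the HepG2 median from -0.29 to -0.16.

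**Figure D4:**
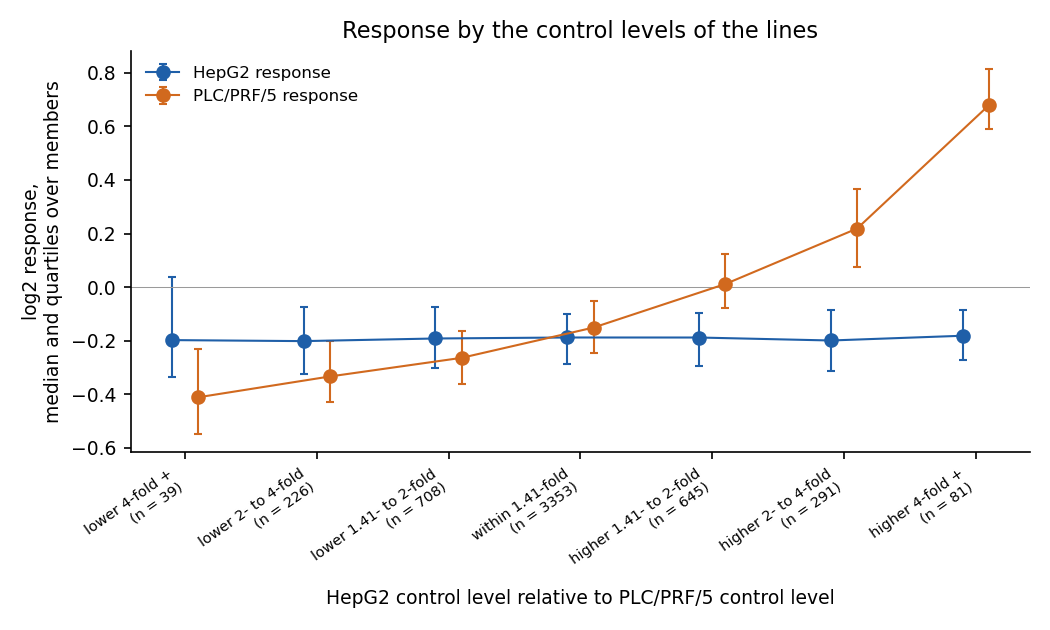
Median and quartiles of the log2 response over members (y axis) in HepG2 (blue) and PLC/PRF/5 (orange), by the ratio of the HepG2 control level to the PLC/PRF/5 control level (x axis, with the number of members). The HepG2 medians lie between -0.20 and -0.18, and the PLC/PRF/5 medians go from -0.41 to 0.68.

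The lines were closer to each other after treatment. The SD over members of the log2 ratio of HepG2 to PLC/PRF/5 was 0.71 in the controls and 0.58 in the treated libraries, and 3525 members (66.0%) were closer when treated. Members at least 2-fold higher in HepG2 numbered 372 in the controls and 194 in the treated libraries, and those at least 2-fold higher in PLC/PRF/5 numbered 265 and 243. Of the 178 members with the higher response in PLC/PRF/5, 138 were at least 2-fold higher in the HepG2 control, and 161 were closer between the lines when treated. Among the 20 with the most negative line differences were also TMEM37, the membrane skeleton gene ANK1 and SH3BP4, a regulator of endocytosis, with responses between -0.30 and -0.24 in HepG2 and between 0.88 and 0.92 in PLC/PRF/5, and the cartilage matrix gene MATN3 at -0.85 and 0.30. After subtraction of the HepG2 share, 101 of the 178 were among the 131 members past 1.5-fold.

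Some further lists had negative median line differences. Oncofetal and liver cancer markers, with a median control log2 ratio of 1.18, had a median line difference of -0.48 over 12 members. The PLC/PRF/5 response was higher by 1.5-fold or more in 5, against 3.33% of all members. It was so in 62 of the 291 members 2- to 4-fold higher in the HepG2 control, whose median line difference was -0.41. With the HepG2 share subtracted the median was -0.22 over 10 members, with 1 at 1.5-fold or more. The 3 of these with controls within 1.5-fold had a median of 0.13. Matrix, integrin and mesenchymal genes had a median of -0.28 over 18 members, with THBS1, SPP1 and FN1 at 1.5-fold or more. SPP1 (osteopontin) stood at 210 and 269 FPKM in HepG2 and at 16.8 and 40.6 FPKM in PLC/PRF/5, 7.96% of the HepG2 level in the controls and 15.1% in the treated libraries. The insulin-like growth factor IGF2 had a line difference of -0.93, with a PLC/PRF/5 control at 18.4% of the HepG2 level. The 20 NRF2 and oxidative stress members, with a median control log2 ratio of -0.17, had a median of -0.16 (median responses of -0.11 and 0.17 as deposited, of which the first was above 0 under the 4 scalings other than TPM and the second was -0.15 on TPM), with HMOX1 and the near-identical aldo-keto reductases AKR1C1 and AKR1C3 at 1.5-fold or more.

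Lists of basic cell functions differed little between the lines. The median line difference was -0.08 for 24 mitosis members, -0.13 for 27 DNA replication members, -0.06 for 40 cytosolic ribosomal proteins, 0.06 for 19 aminoacyl-tRNA synthetases and 0.04 for 24 proteasome subunits. In these lists 1 member reached 1.5-fold, the replication licensing factor CDT1 at -0.59. In mitosis both lines were below the median of all members, with median responses of -0.39 and -0.36. Of the NF-kB targets, the chemokine CCL20 stood at 43.0 and 55.4 FPKM in HepG2 and at 61.7 and 49.8 FPKM in PLC/PRF/5, a line difference of 0.66 with controls within 1.5-fold.

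**Figure D5:**
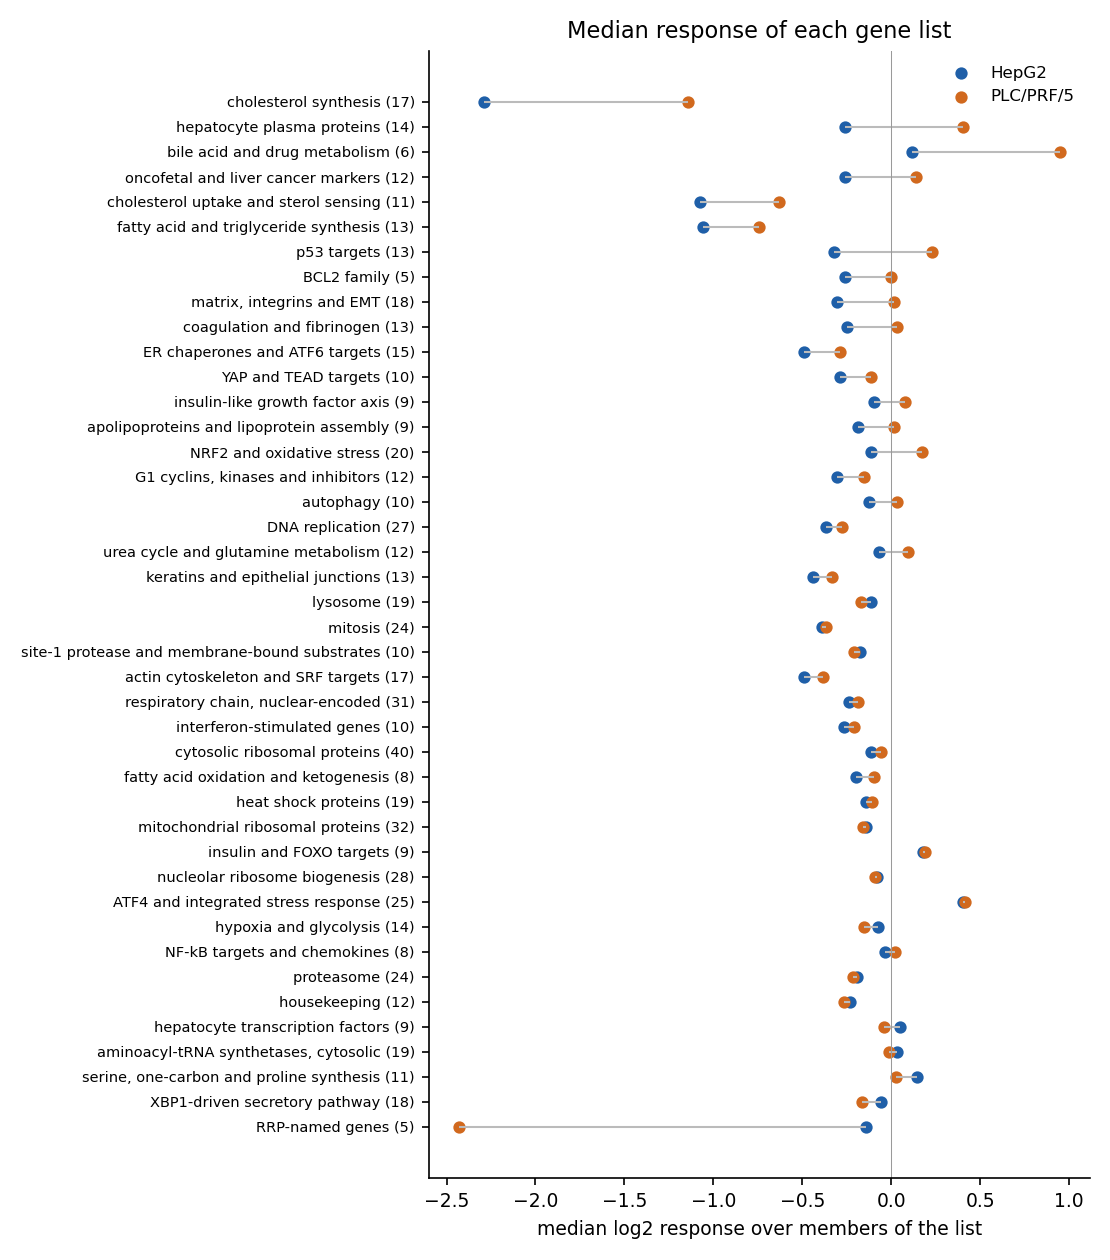
Median log2 response of each gene list with at least 5 members (number in brackets) in HepG2 (blue) and PLC/PRF/5 (orange), ordered by median line difference. Cholesterol synthesis lies at -2.29 and -1.14, hepatocyte plasma proteins at -0.26 and 0.40, and the RRP-named genes at -0.14 and -2.43.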

How the data were processed

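RNA-seq was made from 4 samples, 1 library per group. The deposited values were FPKM, made by the authors for each gene and library. The submitters' processing notes name TopHat2 and GRCh38. The TopHat2 version, the program and annotation behind the values and the strandedness were not given in the sources used here, so overlapping and antisense genes cannot be told apart. Positions and biotypes are from GENCODE release 29 on GRCh38, and 5339 of the 5343 members had a symbol in the table of gene names.

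Responses were log2 ratios of FPKM with a pseudocount of 1, which understates differences of low genes. Folds in calls are on this scale, and other scalings move the median response of -0.19 in HepG2 and -0.14 in PLC/PRF/5. It was -0.50 and -0.45 on the TPM scale and between -0.02 and 0.01 on the others, while the median line difference stayed between -0.06 and 0.03. Whole fragments were recovered from the FPKM values within a tolerance of 0.001, for 2495 members from annotated gene lengths and for 2848 from ratios between libraries. At least 100 fragments in every library stood behind 5326 members, and the lowest value was 36. Ratios of FPKM have 95% counting intervals (Wald, log scale) that cover counting error only, as fragments need not be independent molecules. No count test was run and no p-value is given.

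The members, gene lists, thresholds and alternatives were chosen with earlier results of these data known. Genes were named from the 20 highest and 20 lowest line differences, the 10 largest responses of each direction in 1 line only, the 10 largest opposite line differences in each direction, 4 members of each list, and any member of the sterol, fatty acid, protease, ATF4, FOXO and p53 lists. A few genes that this rule selects are not reported here, but all are counted. Other genes named were chosen after their values were seen. Scripts used Python 3.11.15, pandas 2.3.3, NumPy 2.4.6 and matplotlib 3.10.9 and were tested on simulated data. The alternatives covered the pseudocount, level filter, scaling, fold threshold, control levels, the HepG2 share, the RRP-named genes and fragment counts. Motifs were searched on both strands of the 250 bases before RefSeq starts.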

Additional observations from a re-analysis of the deposited data

Results flagged for a closer look

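In 20 genes the single treated library of one line was above its control by at least 0.32 on the log2 scale and that of the other line below it by as much, and the difference between the lines was not tested. Of these, 19 are given here. The log2 line difference was -1.20 for PGC, -1.19 for SERPINA5, -1.16 for DHRS2, -1.16 for S100A6 and -1.16 for FSCN1. It was -1.13 for IGDCC3, -1.11 for TNFRSF19, -1.06 for DLK1, -1.05 for C4BPA and -1.04 for APOA1. It was -1.01 for the metallothionein gene MT2A, -1.01 for HMOX1, -0.996 for FTCD and -0.96 for CDKN1A. It was -0.86 for RARRES2, -0.85 for SERPINA7, -0.80 for APOBEC3C and -0.72 for SAPCD2. In all these the PLC/PRF/5 response was the higher one. CXCL16, at 0.69, was the one gene with the higher response in HepG2. MT2A and APOBEC3C have near-identical relatives among which reads may be split. IGDCC3 stood at 2.98 and 5.25 FPKM in PLC/PRF/5, so it passed the filter of 5 FPKM there only through its treated library. The filter thus favours a higher response for IGDCC3, and for any other of these genes with a PLC/PRF/5 control below 5 FPKM.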

How the results depend on the processing

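No paired analysis was possible because each group held 1 library, so no library could be left out either. Counts are given in this order: line difference of 1.5-fold or more with the HepG2 response higher (16 as reported) or the PLC/PRF/5 response higher (178), HepG2 only higher (3) or lower (26), PLC/PRF/5 only higher (68) or lower (12), and opposite with HepG2 higher (1) or PLC/PRF/5 higher (19). With at least 1 FPKM in each line they were 41, 399, 8, 58, 116, 29, 3 and 64, and with no filter on low values 143, 483, 10, 83, 124, 127, 9 and 76. With at least 10 FPKM they were 10, 96, 3, 11, 36, 6, 1 and 7. With a pseudocount of 5 they were 11, 103, 2, 10, 26, 9, 0 and 9. At a fold threshold of 2, with 1.5 for opposite responses, they were 9, 41, 0, 3, 2, 5, 0 and 0. On the TPM scale they were 21, 163, 2, 111, 9, 25, 0 and 40. With equal sums over nuclear protein-coding genes they were 20, 155, 6, 14, 105, 10, 0 and 11, with median-of-ratios scaling 23, 132, 9, 10, 85, 11, 0 and 10, with quantile normalization 19, 158, 5, 12, 97, 11, 0 and 11, and with each line centred on its median response 20, 155, 7, 13, 100, 10, 0 and 10. All 16 genes with the higher HepG2 response were kept under each of these 5 scalings, and between 131 and 158 of the 178. The median line difference moved up from -0.06 to between -0.05 and 0.03 under them, which favours keeping the 16 and losing some of the 178. For the other classes the kept members were 0 to 2 of the 3 and 2 to 7 of the 26 in HepG2 only, 4 to 55 of the 68 and 1 to 5 of the 12 in PLC/PRF/5 only, and 0 of the 1 and 2 to 8 of the 19 with opposite responses.

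A pseudocount of 0.1 kept every count within 1.5 times. The alternatives that follow were chosen after seeing the data. Among members with control levels within 1.5-fold, where fewer genes were counted, the counts were 6, 22, 1, 16, 0, 7, 0 and 1. With the HepG2 share subtracted they were 25, 131, 5, 43, 31, 16, 1 and 16. Leaving out the RRP-named genes, and at least 100 fragments in each library, kept every count within 1.5 times. Among members with control levels within 1.5-fold, median line differences turned to 0.082 for bile acid and drug metabolism, 0.029 for plasma proteins, 0.13 for oncofetal markers and 0.11 for hepatocyte markers, with 1 to 3 members each. With the share subtracted, APOH turned to 3.83, since its treated PLC/PRF/5 level was 20.1% of the HepG2 level, under the 20.7% subtracted. Of all other values of named genes under an alternative, 3319 moved by no more than their counting interval and 219 by more, with the sign kept where the line difference was 1.5-fold or more. The level filters, control-level limit, fragment minimum and removal of RRP-named genes cannot move a gene's own value, so many of the 3319 were fixed in advance. The alternatives with most values moved by more were the subtracted share (70), the pseudocount of 5 (58) and median-of-ratios scaling (44). The depth limits only counting error, and the spread between cultures is unknown.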

Other observations

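A set of genes high in PLC/PRF/5 and nearly absent from HepG2 lies outside the comparison, since members had to be expressed in both lines. In the PLC/PRF/5 control 35 nuclear protein-coding genes stood at 20 FPKM or more with under 1% of that level in the HepG2 control. The neuropeptide gene NTS stood at 915 FPKM in the PLC/PRF/5 control and 576 after treatment, with 1 and 0 fragments in HepG2. The glutathione transferase gene GSTP1 stood at 313 and 251 FPKM in PLC/PRF/5, with 3 and 0 fragments in HepG2. The stress hormone gene CRH stood at 236 and 198 FPKM in PLC/PRF/5 and had 0 fragments in both HepG2 libraries. All 35 had a negative response in PLC/PRF/5, with a median of -0.54, a range from -0.99 to -0.04 and 14 lower by 1.5-fold or more. They were chosen for a high level in the PLC/PRF/5 control, which is also the denominator of this response, so the choice favours negative values and no comparison with the members is made.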
